A study of Rattus norvegicus with 6 samples.

Results

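The hypoxia-inducible factor (HIF) genes described here were 10 rows of a rat retinal count table, chosen by gene name out of 34335 rows. They were the alpha subunits Hif1a and Epas1, the degradation machinery Vhl, Egln1 and Egln3, and the targets Bnip3, Adm, Pdk1, Ldha and Slc2a1. All 10 were found, and 9 passed the filter on low counts, Adm being the exception. RNA was sequenced from the retina of BN rats, a pigmented inbred strain of wild-type genotype, after 2 µL of DMP or of saline had been injected into the vitreous. DMP is a cationic micelle known from the labels by this code, given at 10 mg/mL in water, so the micelle and its water vehicle cannot be told apart. There were 3 DMP libraries and 3 saline libraries, numbered 30, 31 and 33 in both groups. The labels give neither the time after injection nor the age of the rats, and do not say whether each library came from a separate animal. P-values therefore reflect no more than the scatter among these 6 libraries, which could be technical. The series title names choroidal neovascularization, in which vessels of the choroid invade the retina, and the comparison asks which retinal transcripts differed after DMP.

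HIF is a pair of proteins, an oxygen-regulated alpha subunit with the stable partner ARNT. In oxygenated cells, prolyl hydroxylases of the EGLN family mark the alpha subunit and the VHL ubiquitin ligase sends it for degradation. At low oxygen the alpha subunit accumulates as protein, often with little change in its own mRNA, and switches on genes for glycolysis, glucose uptake and vessel growth. The retina consumes oxygen heavily and makes much lactate even when oxygenated, and HIF is known there as a driver of pathological vessel growth. HIF protein was not measured here, so the targets are the part of the pathway nearest to its activity.

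HIF binds DNA at a short core, ACGTG or GCGTG, and 4 promoters of targets are shown for comparison with how those targets behaved. The sequences are those of RefSeq on the GRCr8 build, 250 bases before to 50 bases after the annotated start, and capitals mark either core on either strand.
Slc2a1 promoter, chr5:138002272-138002571, forward strand: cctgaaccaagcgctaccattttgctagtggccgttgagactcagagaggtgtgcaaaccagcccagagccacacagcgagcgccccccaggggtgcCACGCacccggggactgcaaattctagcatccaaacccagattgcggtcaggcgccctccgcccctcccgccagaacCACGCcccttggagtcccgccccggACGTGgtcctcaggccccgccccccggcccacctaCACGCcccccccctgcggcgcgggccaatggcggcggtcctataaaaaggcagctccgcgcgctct
Ldha promoter, chr1:106507842-106508141, forward strand: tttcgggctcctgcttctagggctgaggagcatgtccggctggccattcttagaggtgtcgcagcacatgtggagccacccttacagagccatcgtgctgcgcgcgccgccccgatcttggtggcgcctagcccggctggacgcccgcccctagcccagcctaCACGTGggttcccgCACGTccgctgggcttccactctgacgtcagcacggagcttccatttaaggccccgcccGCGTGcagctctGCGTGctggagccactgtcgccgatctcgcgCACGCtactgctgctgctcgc
Bnip3 promoter, chr1:203154913-203155212, reverse strand: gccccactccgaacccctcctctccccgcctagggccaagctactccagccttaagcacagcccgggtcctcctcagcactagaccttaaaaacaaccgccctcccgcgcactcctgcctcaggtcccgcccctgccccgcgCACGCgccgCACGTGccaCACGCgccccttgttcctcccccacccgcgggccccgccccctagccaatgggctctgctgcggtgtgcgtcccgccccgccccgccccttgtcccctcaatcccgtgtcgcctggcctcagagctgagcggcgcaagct
Pdk1 promoter, chr3:77113264-77113563, forward strand: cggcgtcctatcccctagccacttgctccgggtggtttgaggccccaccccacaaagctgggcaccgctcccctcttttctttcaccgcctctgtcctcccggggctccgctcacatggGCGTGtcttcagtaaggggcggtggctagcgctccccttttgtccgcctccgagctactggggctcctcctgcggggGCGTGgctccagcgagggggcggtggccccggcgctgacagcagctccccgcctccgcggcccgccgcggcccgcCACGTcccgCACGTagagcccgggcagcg
Slc2a1 held 4 matches in this window, Ldha 6, Bnip3 4 and Pdk1 4, where a core inside the palindrome CACGTG counts once per strand. Of the 10 members, which all matched a RefSeq promoter, 6 held at least 1 match (these 4, Hif1a and Egln1), against 41.6% of 33469 rat promoters of the same length. The windows of Epas1, Vhl, Egln3 and Adm held none, which says only that these letters are not in them. GC content of the members' windows ran from 44.7% for Egln3 to 84.7% for Egln1. A match is a description of the letters and not a binding site.

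Slc2a1 had the smallest p among the tested members, at 142 ± 1.33 library-size-scaled counts (CPM) in DMP retinas and 165 ± 13.4 CPM in saline retinas (mean ± SD, n = 3 per group). Hif1a, Epas1, Vhl, Egln1 and Pdk1 had nearly the same mean level in both groups. Bnip3, Ldha and Egln3 had somewhat higher means in DMP retinas. None of these differences passed the test. In the quasi-likelihood test of edgeR, 0 of the 9 tested members had a Benjamini-Hochberg adjusted p under 0.05, against 4 of 18571 genes (0.0215%) over the whole table. At an unadjusted p under 0.05 there was 1 member of 9, Slc2a1, against 4.64% of all genes. DESeq2 and limma-voom also called 0 members.

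**Figure D1:**
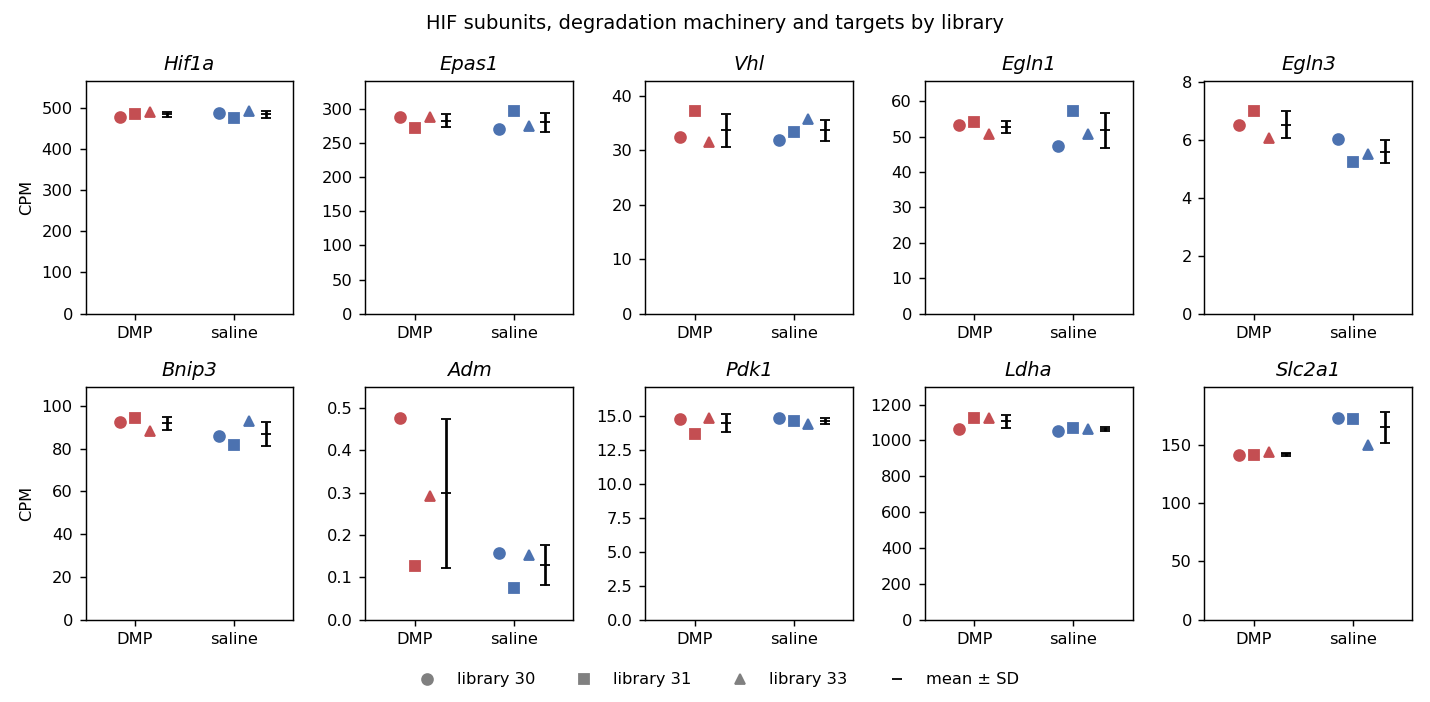
CPM of each of the 10 genes in each library, DMP left and saline right, with a symbol per library number and the mean ± SD beside the points. The 3 DMP points of Slc2a1 lie together at 141 to 143 CPM below all saline points, Egln3 points do not overlap between groups, and the other genes overlap.

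Total counts were 47842234 to 53255925 per library, and 21124 to 21422 genes had a count above 0. Rod photoreceptor genes, which mark retina, were abundant in every library, and their 8 listed markers summed to 60540 to 63629 CPM in DMP retinas and 60795 to 64355 CPM in saline retinas. On the first principal component, which held 28.1% of the variance, DMP libraries 30, 31 and 33 scored -53.0, -7.01 and 0.135. Saline libraries 30, 31 and 33 scored 23.4, 17.9 and 18.5, all above the DMP libraries. DMP 30 stood farthest from the rest. Microglia markers were higher in DMP retinas (9 of 9 above 0 in log2 fold change, 91.3 to 139.5 CPM summed, against 63.4 to 89.3 CPM in saline retinas). Fibroblast markers were lower (6 of 6 below 0, 17.3 to 42.5 CPM summed in DMP retinas and 65.0 to 77.1 CPM in saline retinas). No single marker of either list had an edgeR adjusted p under 0.05. The 18S ribosomal RNA Rn18s, largely depleted by oligo(dT) beads, made up 0.0439% to 0.159% of each DMP library, against 0.0121% to 0.0338% of each saline library. The part of these differences in the results below was not tested.

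The alpha subunits had nearly equal means in both groups. Hif1a, the broadly expressed subunit (mRatBN7.2 chromosome 6, 92624059 to 92669262, forward strand), was at 477, 485 and 489 CPM in DMP libraries 30, 31 and 33, against 487, 475 and 491 CPM in saline libraries 30, 31 and 33. The groups covered almost the same range. The log2 fold change was -0.00091 with a 95% interval of -0.10 to 0.098, so the interval ran from -6.68% to 7.02% of the saline level (edgeR adjusted p = 1.00). An uncharacterised gene, LOC120103553, overlaps Hif1a on the opposite strand over 31317 bases and had a mean count of 2866. The strand setting of the counting is not given, so reads of this pair may be mixed in the value of Hif1a.

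Epas1, which encodes HIF-2alpha, a subunit prominent in endothelium (chromosome 6, 7790236 to 7870332, reverse strand), was at 288, 271 and 288 CPM in DMP libraries 30, 31 and 33. Saline libraries 30, 31 and 33 held 271, 296 and 274 CPM, so that the groups overlapped. The log2 fold change was 0.011 (95% interval -0.10 to 0.13, edgeR adjusted p = 1.00). The ratio of Hif1a to Epas1 CPM within a library was 1.71 ± 0.067 in DMP retinas and 1.73 ± 0.111 in saline retinas (SD, n = 3 each). Markers of endothelium summed to 597 to 682 CPM in DMP retinas and 610 to 635 CPM in saline retinas, with 8 of 10 above 0 in log2 fold change and 0 of 10 at an unadjusted p under 0.05 in edgeR. In bulk retina, fewer cells of a type and less RNA per cell cannot be told apart.

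In the degradation machinery, the main oxygen sensor and the ligase had nearly equal means, and the inducible hydroxylase had a higher mean in DMP retinas that did not pass the test. Vhl, the substrate-binding part of the ubiquitin ligase (chromosome 4, 146772483 to 146779376, forward strand), was at 32.4, 37.1 and 31.5 CPM in DMP libraries 30, 31 and 33, against 31.8, 33.3 and 35.7 CPM in saline libraries 30, 31 and 33. Its groups overlapped, with a log2 fold change of 0.0014 (95% interval -0.18 to 0.18). Egln1, the hydroxylase also called PHD2 (chromosome 19, 52867914 to 52907169, reverse strand), was at 53.2, 54.0 and 50.7 CPM in DMP libraries 30, 31 and 33. Saline libraries 30, 31 and 33 held 47.4, 57.1 and 50.6 CPM of Egln1, a wider range that contained all DMP values. Its log2 fold change was 0.025 (95% interval -0.14 to 0.18).

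Egln3, or PHD3, a hydroxylase whose own transcription is induced by HIF (chromosome 6, 71650297 to 71675766, reverse strand), was at 6.51, 6.99 and 6.06 CPM in DMP libraries 30, 31 and 33. Saline libraries 30, 31 and 33 held 6.02, 5.26 and 5.52 CPM. All DMP values lay above all saline values, but the lowest DMP and the highest saline library were only 6.06 and 6.02 CPM. The log2 fold change was 0.22 (SE 0.13, 95% interval -0.07 to 0.51) and did not pass (edgeR adjusted p = 1.00, unadjusted p = 0.122). Counts of 282 to 341 per library stood behind these values. Groups did not overlap for 2 of the 9 tested members, Egln3 and Slc2a1, against 9.30% of all genes.

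Among the targets, the mitophagy gene and the lactate enzyme had slightly higher means after DMP. Bnip3, a mitochondrial protein that promotes mitophagy (chromosome 1, 193708164 to 193725348, reverse strand), was at 92.5, 94.6 and 88.5 CPM in DMP libraries 30, 31 and 33, against 86.1, 81.5 and 93.0 CPM in saline libraries 30, 31 and 33. Saline 33 lay among the DMP values, and the log2 fold change was 0.08 (95% interval -0.05 to 0.21). LOC120099953 overlaps Bnip3 on the opposite strand over 3123 bases, with a mean count of 350.2, so reads of this pair may be mixed too. Ldha, the lactate dehydrogenase subunit that favours lactate formation (chromosome 1, 97371823 to 97381247, forward strand), was at 1066, 1127 and 1125 CPM in DMP libraries 30, 31 and 33. Saline libraries 30, 31 and 33 held 1051, 1070.3 and 1065 CPM, so DMP 30 lay inside the saline range and DMP 31 and 33 above it. The log2 fold change of Ldha was 0.06 (95% interval -0.05 to 0.16). The ratio of Ldha to Ldhb, the subunit that favours pyruvate, was 9.91 ± 0.962 in DMP retinas and 9.11 ± 0.65 in saline retinas (SD, n = 3 each), with overlapping groups.

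Pdk1, a kinase that holds pyruvate back from mitochondria by inhibiting pyruvate dehydrogenase (chromosome 3, 56705824 to 56733040, forward strand), was at 14.8, 13.7 and 14.9 CPM in DMP libraries 30, 31 and 33. Saline libraries 30, 31 and 33 held 14.8, 14.7 and 14.4 CPM, so only DMP 31 lay below the saline range. Its log2 fold change was -0.016 (95% interval -0.21 to 0.17). Of the other family members, Pdk2 was at 52.1 ± 3.34 CPM in DMP retinas and 56.1 ± 3.08 CPM in saline retinas, and Pdk3 at 66.4 ± 1.91 CPM in DMP retinas and 71.1 ± 6.76 CPM in saline retinas. Pdk4, which fasting induces in other tissues, had 22, 47 and 25 counts in DMP libraries 30, 31 and 33, against 18, 29 and 14 counts in saline libraries 30, 31 and 33.

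Adm encodes adrenomedullin, a vasodilator peptide that acts on endothelium (chromosome 1, 164745484 to 164747655, forward strand), and its transcript lay near the limit of detection. Its counts were 25, 6 and 15 in DMP libraries 30, 31 and 33, against 8, 4 and 8 in saline libraries 30, 31 and 33. DMP 30 and DMP 33 held the most, while DMP 31 lay within the saline range. In each library 673 to 741 genes had a count of 4, against 301 to 325 at a count of 3 and 218 to 254 at 5, so a value of 4 may stand for about a single fragment. With no filter, edgeR gave a log2 fold change of 1.20 (adjusted p = 0.966, unadjusted p = 0.148). The counts of Adm were low and its DMP libraries varied by 58.8% of their mean. Its receptor genes were level, Calcrl at 5.83 ± 0.96 CPM in DMP retinas and 5.89 ± 0.823 CPM in saline retinas, and Ramp2 at 2.61 ± 0.629 CPM in DMP retinas and 2.46 ± 0.545 CPM in saline retinas.

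Slc2a1 encodes GLUT1, the glucose transporter of the blood-retinal barrier, the pigment epithelium and retinal cells (chromosome 5, 132717196 to 132745416, forward strand). It was at 141, 141 and 143 CPM in DMP libraries 30, 31 and 33, against 173, 172 and 149 CPM in saline libraries 30, 31 and 33. The DMP libraries lay within 3 CPM of each other and below every saline library, with saline 33 closest to them. The log2 fold change was -0.22 (SE 0.0585, 95% interval -0.35 to -0.09), that is -13.9% with an interval of -21.3% to -5.91%. It did not pass after adjustment over all genes (edgeR adjusted p = 0.396, unadjusted p = 0.0035), and stood at rank 164 of 18571 genes by p. The adjusted p was 0.0745 with DESeq2 and 0.485 with limma-voom. Without saline 33 the log2 fold change was -0.28 (edgeR adjusted p = 0.0858), and without saline 30 it was -0.18 (adjusted p = 1.00).

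Slc2a3, which encodes the neuronal glucose transporter GLUT3, did not share this pattern of values, at 60.7 ± 3.06 CPM in DMP retinas and 58.8 ± 4.36 CPM in saline retinas. The ratio of Slc2a1 to Slc2a3 CPM within a library was 2.20, 2.38 and 2.44 in DMP libraries 30, 31 and 33, against 2.73, 2.98 and 2.72 in saline libraries 30, 31 and 33. No DMP ratio reached the lowest saline ratio, but Slc2a1 alone already separated the groups, so the ratio adds no separate support. Among the cells that carry GLUT1, pigment epithelium markers summed to 40.3 to 86.1 CPM in DMP retinas and 56.3 to 110.3 CPM in saline retinas, and 5 of 8 were below 0 in log2 fold change. Of these, 3 had an unadjusted p under 0.05 in edgeR, against 4.64% of all genes, and 0 passed after adjustment. They were the pigment genes Tyr (log2 fold change -3.13), Tyrp1 (-1.69) and Pmel (-1.27). The 3 above 0 were Rpe65, Rgr (0.15) and Ttr (0.18). Rpe65, the retinoid isomerase of the pigment epithelium, was at 8.95 CPM in DMP retinas and 6.64 CPM in saline retinas. Müller glia markers summed to 4822 to 5067 CPM in DMP retinas and 4960.5 to 5196 CPM in saline retinas, with 5 of 7 below 0 and 0 of 7 at an unadjusted p under 0.05. Lens markers, of which 4 of 6 tested were lower at an unadjusted p under 0.05 in edgeR and 0 passed after adjustment, were low in all libraries. They summed to 1.43 to 31.8 CPM in DMP retinas and 13.9 to 35.4 CPM in saline retinas. The groups overlapped for these sums and for endothelium, and none of the 4 lists had a marker at 0 in all libraries. The part of these cells in the lower Slc2a1 values was not tested.

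**Figure D2:**
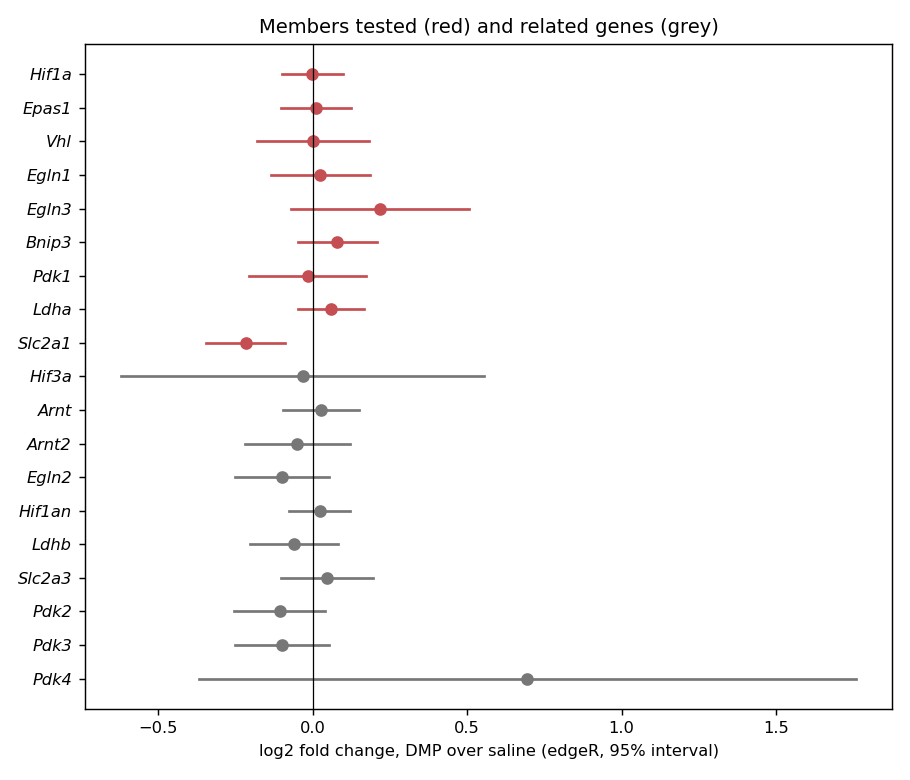
Log2 fold change of DMP over saline with its 95% interval from edgeR, for the 9 tested members in red and 10 related genes in grey. Slc2a1 is the 1 gene whose interval does not reach 0, at -0.35 to -0.09, while Hif3a and Pdk4 have the widest intervals.

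Levels of different genes were compared per length, with the FPKM values deposited by the authors. Ldha stood highest at 5376 ± 228 FPKM in DMP retinas and 5176 ± 73.9 FPKM in saline retinas (SD, n = 3 each). Hif1a followed at 106 ± 2.61 FPKM in DMP retinas and 107 ± 2.48 in saline retinas, then Slc2a1 at 69.2 ± 1.35 FPKM in DMP retinas and 80.7 ± 5.96 FPKM in saline retinas. Next was Epas1 at 52.4 ± 1.86 FPKM in DMP retinas and 52.2 ± 2.48 FPKM in saline retinas. Bnip3, at 51.3 ± 1.47 FPKM in DMP retinas and 48.7 ± 3.58 FPKM in saline retinas, had a range over the 6 libraries that overlapped that of Epas1. Egln1 (12.5 to 15.1 FPKM over the 6 libraries), Pdk1 (9.11 to 9.98), Vhl (4.11 to 4.82), Egln3 (1.68 to 2.24) and Adm (0.0172 to 0.128) came after them in this order. Apart from Epas1 and Bnip3, no neighbours in the order had overlapping ranges.

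The place of Ldha, Vhl and Adm in this order is uncertain, because the length behind their FPKM is doubtful. Count, FPKM and the table's total count together give the length that was used, and for Ldha this was 205 bases, against 2042 bases for Slc2a1. For Vhl it was 7685 bases and for Adm 3746 bases, longer than the genomic spans of 6894 and 2172 bases of these genes. By CPM, Ldha (1106 CPM in DMP retinas, 1062 CPM in saline retinas) lay below the glycolytic enzyme Gapdh (1335 CPM in DMP retinas, 1330 CPM in saline retinas), whereas by FPKM it lay far above it (Gapdh 840 FPKM in both groups). Each length is a median over the 6 libraries, and for Adm it varied between them. The edgeR comparison between groups used counts, so these lengths do not enter it.

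**Figure D3:**
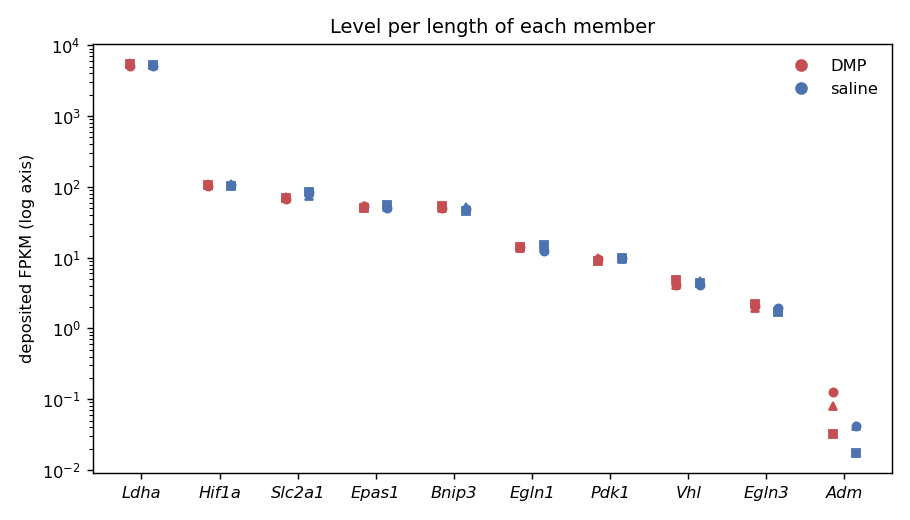
Deposited FPKM of each gene on a log axis, ordered by level, with DMP libraries left and saline libraries right of each position and a symbol per library number (circle 30, square 31, triangle 33). Levels run from 5530 FPKM for the highest Ldha value to 0.0172 FPKM for the lowest Adm value, and the spread between libraries is small beside the distance between most genes.

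The rest of the pathway was read from 3 lists of 77 genes in all, Egln2 being in 2 of them. Of 75 genes tested, 0 passed in edgeR (3 at an unadjusted p under 0.05, against 4.64% of all genes tested). With DESeq2 0 of them passed, against 0.495% of all genes, and with limma-voom 0, against 0.0215%. In edgeR 36 were above 0 in log2 fold change and 39 below. The median log2 fold change was -0.0021, against 0.011 over the tested members and -0.00011 over all genes tested.

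Of 20 partners and regulators, 10 were above 0 and 10 below, with a median of -0.00049. Crebbp, a coactivator recruited by HIF, had the smallest p on the lower side at 54.4 ± 0.58 CPM in DMP retinas and 60.3 ± 2.34 CPM in saline retinas (log2 fold change -0.15, edgeR adjusted p = 0.81). Siah1, a ubiquitin ligase that in other systems degrades prolyl hydroxylases, was at 44.3 ± 1.66 CPM in DMP retinas and 39.0 ± 2.62 CPM in saline retinas (log2 fold change 0.18, edgeR adjusted p = 0.833). Rbx1, the RING subunit of the VHL ligase, was at 107 ± 3.68 CPM in DMP retinas and 101 ± 2.38 CPM in saline retinas. Groups did not overlap for 3 of the 20, which were Crebbp, Siah1 and Rbx1, against 9.30% of all genes. Over the 3 lists together, groups did not overlap for 5 of the 75 genes tested, against the same 9.30% of all genes. The hydroxylase Egln2 was at 35.9 ± 0.449 CPM in DMP retinas and 38.5 ± 2.56 CPM in saline retinas, and Hif1an, which hydroxylates an asparagine of the alpha subunit, at 114 ± 2.75 CPM in DMP retinas and 112 ± 2.36 CPM in saline retinas. The partner Arnt was at 76.8 ± 2.58 CPM in DMP retinas and 75.3 ± 4.16 CPM in saline retinas, and its relative Arnt2 at 27.4 ± 1.52 CPM in DMP retinas and 28.4 ± 1.78 CPM in saline retinas. Hif3a, the remaining alpha subunit, was at 10.4 ± 3.32 CPM in DMP retinas and 10.6 ± 3.57 CPM in saline retinas, the least steady of the alpha subunits.

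Of 25 glycolysis and lactate genes, 11 were above 0 and 14 below, with a median of -0.0093, and 0 had an unadjusted p under 0.05 in edgeR. The smallest p on the higher side among genes with a mean of at least 1 CPM belonged to Slc16a1, a lactate transporter, at 242 ± 11.3 CPM in DMP retinas and 233 ± 6.75 CPM in saline retinas. Pkm, the last kinase of glycolysis, came next at 1798 ± 131 CPM in DMP retinas and 1725 ± 86.3 CPM in saline retinas. On the lower side these were Pdk2 and Pdk3, given above. Ldhb was at 112 ± 7.8 CPM in DMP retinas and 117 ± 8.25 CPM in saline retinas. For all of these the groups overlapped.

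Of 31 other tested HIF targets, 15 were above 0 and 16 below, with a median of -0.0052. Ca12, a membrane carbonic anhydrase, was at 3.23, 1.12 and 2.34 CPM in DMP libraries 30, 31 and 33. Saline libraries 30, 31 and 33 held 6.20, 3.65 and 3.63 CPM of Ca12, all above the DMP values (log2 fold change -1.01, edgeR adjusted p = 0.699). P4ha2, a collagen prolyl hydroxylase subunit, was at 9.92 ± 1.18 CPM in DMP retinas and 11.7 ± 1.13 CPM in saline retinas, with overlapping groups (log2 fold change -0.24, edgeR adjusted p = 1.00). The fibroblast markers given above were lower in the same DMP libraries, at 17.3, 24.7 and 42.5 CPM summed in DMP libraries 30, 31 and 33. Pigment epithelium markers summed to 86.1, 40.8 and 40.3 CPM in DMP libraries 30, 31 and 33. In saline libraries 30, 31 and 33 they summed to 110.3, 56.3 and 73.9 CPM. The part of fibroblasts and of pigment epithelium in the values of Ca12 and P4ha2 was not tested.

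On the higher side, Angptl4, a secreted regulator of lipoprotein lipase, was at 2.24 ± 0.189 CPM in DMP retinas and 1.85 ± 0.234 CPM in saline retinas, and Higd1a, a mitochondrial protein, at 34.1 ± 1.19 CPM in DMP retinas and 32.5 ± 1.65 CPM in saline retinas. Both had overlapping groups. Vegfa, the HIF target most tied to vessel growth and named here after its values were seen, was at 232 ± 11.9 CPM in DMP retinas and 230 ± 13.9 CPM in saline retinas, a log2 fold change of 0.011. Epo and Stc2 were too low to test.

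**Figure D4:**
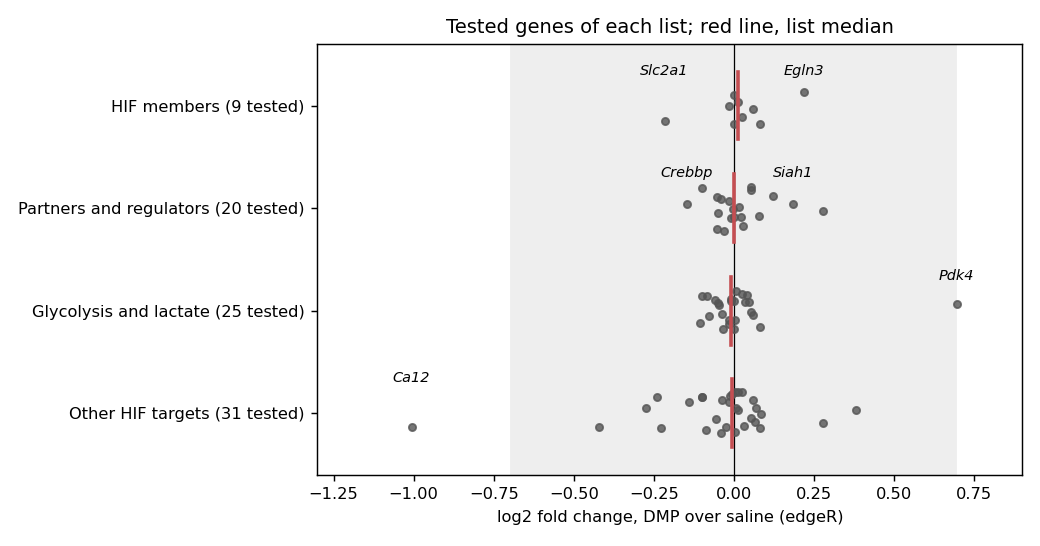
Log2 fold change of DMP over saline for the tested genes of the HIF members and the 3 other lists, each point a gene and each red line a list median; vertical scatter within a row has no meaning. The grey band holds the central 95% of all genes tested (-0.696 to 0.691), and most points lie close to 0. Ca12 lies outside the band at -1.01, and Pdk4, at 0.695, lies just above its upper edge.

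Variation among the 6 libraries, which includes any difference between groups and so is not precision, differed among the members. The coefficient of variation of CPM over all 6 libraries was 1.37% for Hif1a, 3.07% for Ldha and 3.08% for Pdk1, and reached 9.91% for Slc2a1 and 10.5% for Egln3 among the tested members. It was 69.3% for Adm. The median over all genes tested was 8.997%. For Slc2a1 the variation lay mostly between the groups and in saline 33, since the DMP libraries alone varied by 0.94%.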

How the data were processed

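Polyadenylated RNA of 6 rat retina samples, 3 DMP and 3 saline, was sequenced with strand kept by dUTP, per the labels' protocols. The deposited count table held whole numbers for 34335 genes and was treated as estimated counts. The authors' FPKM table held 24744 genes, repeated the same counts, and its FPKM followed the counts within 2% for 13941 of 14036 genes with a mean count of at least 100. Per the submitters' processing notes, cutadapt 1.9 trimmed the reads and mRatBN7.2 was the genome build. No aligner, counter or strand setting is named in the sources used here. PCR copies could not be told apart, since molecular identifiers are not mentioned.

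Genes were filtered with edgeR 4.0.16 in R 4.3.3 (minimum count 10, minimum total 15), scaled by trimmed mean of M-values and compared with a two-sided quasi-likelihood F-test with group as its single term, adjusted over 18571 genes by the Benjamini-Hochberg method at 0.05. Standard errors were derived from the log2 fold change and F, with 95% intervals. The procedure was also run on simulated counts, with changes larger than those of the tested members. The simulation therefore does not show how often changes of the sizes seen here would be called. DESeq2 1.42.0, limma 3.58.1, other filters and factors, FPKM on the log2 scale with pseudocounts of 1 and 0.1, a replicate block and leaving out each library were alternatives. Coordinates are those of the authors' table, and chromosome names those of RefSeq GRCr8. All 177 list symbols matched, Ca9 and Ca12 through synonyms. Named genes were the 10 members, 10 fixed relatives and, per pathway list, the 2 of smallest p per direction with a mean of at least 1 CPM. Some further genes, such as Calcrl, Ramp2, Gapdh and Vegfa, were named outside this rule. Members and lists were chosen with earlier results of these data known. A listed item is not reported here and was left out of its list.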

Additional observations from a re-analysis of the deposited data

How the results depend on the processing

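Of the 10 members, 0 passed the threshold under any alternative, and the lowest adjusted p was 0.0745, for Slc2a1 with DESeq2. Slc2a1 stayed below 0 (-0.28 to -0.18 on the log2 scale) and Egln3 (0.14 to 0.27), Bnip3 (0.034 to 0.13) and Ldha (0.043 to 0.085) above 0. Adm was above 0 where it could be fitted (0.93 to 1.57). It was not fitted with DMP 30 or with DMP 33 left out, the libraries with its highest counts. Whether the sign of Adm depends on either of them was therefore not tested. The 5 members near 0 changed sign in 17 of their values, with sizes up to 0.074. Vhl was -0.0024 with no filter, -0.0032 with limma-voom, -0.0036 and -0.0046 with FPKM pseudocounts of 1 and 0.1, -0.00028 with the replicate block, and -0.0739 to 0.046 when a library was left out. With a library left out Hif1a ran from -0.018 to 0.0094, Epas1 from -0.015 to 0.0498, Egln1 from -0.036 to 0.099, Pdk1 from -0.0398 to 0.021 and the median of the members from -0.0042 to 0.043. Genes past the threshold over the whole table, 4 in the fit reported, numbered 12 with a mean of at least 1 CPM required, 92 with DESeq2, 0 and 7 with FPKM pseudocounts of 1 and 0.1, and 0 to 81 when a library was left out. Of the other pathway genes, 0 passed under any alternative run.

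With the number as a replicate block, 45 genes passed, none of them a member. The numbers were not treated as pairs in the fit reported. Deviations of same-numbered libraries correlated by 0.0659, 0.035 and 0.0281, against -0.0794 to 0.0463 for libraries of different numbers. These values do not decide whether the numbers mark pairs. Adm had the fewest counts of the members, at 4 to 25 per library.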
